A study of Mus musculus with 9 samples.

Results

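The whole testis of the adult wildtype (WT) mouse was described here from its polyadenylated RNA alone, by summing the abundance of all transcripts of each gene in the 3 WT libraries of a series of 9. The 3 testes came from male C57Bl6/N mice aged 15 weeks that carried no mutant allele. The other 6 libraries, 3 from importin alpha7-/- (*Kpna6*) mice and 3 from mice with a deletion of the importin β binding domain on both alleles, were not used, so no comparison between genotypes is made. The study describes the full-length protein as still made in the testis of the importin alpha7-/- line. Of the 96626 transcripts in the tables, 95301 (98.6%) had an entry in the mouse annotation of genome build GRCm38 (GENCODE M21) and fell into 32035 genes. Levels between genes are given as TPM, the relative number of molecules of a transcript, a unit that divides the reads of a transcript by its effective length, so that short and long mRNAs can be compared, and class sizes are given as the percent of the TPM on these genes. Each library is 1 whole testis sample, and the labels do not say whether a replicate number links testes of different genotypes. With 3 testes a paired exact sign-flip test cannot go below p = 0.25, so values are given with their SD over the 3 testes, and genes are called separate only where the ranges of the 3 testes did not overlap.

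The adult testis holds every stage of male germ cell development at once. Spermatogonia divide, spermatocytes recombine and divide meiotically, and haploid round spermatids then elongate, replacing histones by transition proteins and these by the arginine-rich protamines, while they build an acrosome and a flagellum. Transcription stops as the spermatid nucleus condenses, so mRNAs for late proteins are made early and stored with RNA-binding proteins. During meiosis the X and Y chromosomes are silenced, and many housekeeping genes on the X have an autosomal relative that is used in male germ cells. Sertoli cells nurse the germ cells inside the tubules, and Leydig cells between the tubules make testosterone and insulin-like 3.

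The 4 most abundant mRNAs all encoded proteins that package sperm DNA, and the 120 bases before their RefSeq start sites (build GRCm38.p6) are shown because these mRNAs led all others. Capitals mark matches to TGANNTCA, the cAMP response element palindrome with its middle bases left free, and to TATA where it begins between 45 and 20 bases before the start. In the testis the activator CREM, a member of the CREB family, is known to bind cAMP response elements. The free form of the element was chosen after the sequences had been seen. The windows are *Prm1* at chr16:10796824-10796943, *Prm2* at chr16:10792106-10792225, *Tnp1* at chr1:73015900-73016019 and *Tnp2* at chr16:10788656-10788775, each on the minus strand.
Prm1 promoter: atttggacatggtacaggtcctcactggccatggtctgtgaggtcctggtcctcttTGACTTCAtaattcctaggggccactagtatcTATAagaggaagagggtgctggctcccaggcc
Prm2 promoter: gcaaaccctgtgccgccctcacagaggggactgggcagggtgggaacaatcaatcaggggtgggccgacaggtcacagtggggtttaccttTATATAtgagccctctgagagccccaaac
Tnp1 promoter: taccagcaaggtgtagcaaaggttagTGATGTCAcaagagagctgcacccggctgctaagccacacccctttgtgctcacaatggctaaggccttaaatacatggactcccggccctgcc
Tnp2 promoter: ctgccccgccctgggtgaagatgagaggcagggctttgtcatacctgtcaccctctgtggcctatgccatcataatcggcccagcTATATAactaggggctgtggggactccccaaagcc

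A match to TGANNTCA lay 64 bases before the *Prm1* start and 94 bases before the *Tnp1* start, and *Prm2* and *Tnp2* had none in their windows. TATA matches lay 32 bases before *Prm1*, 29 and 27 bases before *Prm2*, and 35 and 33 bases before *Tnp2*, the last pairs overlapping within one TATATA. Among all 32851 RefSeq windows, which run from 250 bases before to 50 bases after a start, 14.1% held TGANNTCA on either strand, 1.79% held its full form TGACGTCA, and 6.62% held TATA at the positions above. The 4 windows held 1 (*Prm1*), 3 (*Prm2*), 6 (*Tnp1*) and 4 (*Tnp2*) CG dinucleotides, against a median of 7 over all windows. These matches are letters in a window, and binding was not measured.

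The coding sequences of *Prm1* and *Tnp1* (GENCODE M21) are shown because they spell out the feature that these genes share. Capitals mark codons for arginine.
Prm1 coding sequence: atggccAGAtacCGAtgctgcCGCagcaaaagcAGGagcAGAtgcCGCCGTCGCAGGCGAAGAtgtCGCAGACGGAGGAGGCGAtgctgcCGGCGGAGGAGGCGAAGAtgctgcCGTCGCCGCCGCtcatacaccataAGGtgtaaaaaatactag
Tnp1 coding sequence: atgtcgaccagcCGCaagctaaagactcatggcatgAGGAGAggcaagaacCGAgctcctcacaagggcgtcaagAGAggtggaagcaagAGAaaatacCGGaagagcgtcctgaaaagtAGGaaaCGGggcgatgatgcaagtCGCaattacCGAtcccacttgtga

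Arginine took 28 of the 51 codons of *Prm1* (54.9%), the highest percentage among 14295 protein-coding genes detected in all 3 testes. *Prm2* followed as the second highest, with 38 of 107 codons (35.5%). *Tnp1* had 11 arginine codons of 55 (20.0%, rank 14) and *Tnp2* 16 of 117 (13.7%, rank 126). The linker histone of condensing spermatids *H1fnt* had 65 of 398 (16.3%, rank 50). *Hils1*, a linker-histone-like gene of spermatids, had only 12 of 170 (7.06%, rank 3304). The median gene used arginine for 5.60% of its codons. *Prm3*, which lies in the same gene cluster on chromosome 16 and is named as a protamine, had only 2 arginine codons of 101 (1.98%). The mean of the genes' arginine percentages, weighted by gene TPM, was 8.10%. This is not the share of arginine among all codons of the mRNA, since the number of codons per gene was not weighted.

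The libraries were similar in depth, with 28183143 to 31629697 estimated counts, and between 16523 and 16656 genes reached 1 TPM in each. Pairs of testes correlated across genes at a Pearson r of 0.990 to 0.991 on log2(TPM + 1), where genes are not independent replicates. Marker genes were set against the labelled tissue. All 12 markers of elongating spermatids, all 10 of round spermatids, of pachytene spermatocytes and of leptotene to zygotene spermatocytes, and all 15 of Sertoli cells were at 1 TPM or more in each testis. Over all protein-coding genes 14515 of 21743 reached this level, so detection alone says little about a marker. Markers of neighbouring tissue were low. Of 11 epididymis markers 8 stayed under 1 TPM in all testes, with *Lcn5* and *Spint4* listed at 0, and the 11 together summed to 8.47 ± 0.835 TPM. The 6 seminal vesicle markers in the tables summed to 11.0 ± 1.34 TPM, most of it from *Svs5* at 8.06 TPM.

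The elongating spermatid markers together held 80940, 79444 and 70765 TPM in WT replicates 1, 2 and 3. Most of this was *Prm1*, *Prm2*, *Tnp1* and *Tnp2*, with means of 22215, 16804, 14388 and 13166 TPM, while the median marker had 1791 TPM. The study measured these mRNAs in sorted round spermatids as well, so the sum is not one of elongating cells alone. Markers of pachytene spermatocytes summed to 7073 ± 298 TPM, of which *Ldhc* alone held 3546 TPM. Round spermatid markers summed to 1656 ± 92.5 TPM and leptotene to zygotene markers to 614 ± 18.7 TPM. Spermatogonial markers summed to 862 ± 16.5 TPM, of which *Dmrtb1* held 708 ± 11.7 TPM and the median marker 8.54 TPM. Macrophage markers summed to 73.1 ± 13.5 TPM and haemoglobin and other red cell genes to 151 ± 31.5 TPM. In bulk tissue, fewer cells of a type and less RNA per cell cannot be told apart, so none of these sums is a share of cells.

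In total 15736 of the 32035 genes reached 1 TPM in all 3 testes, 8610 reached 10 TPM, 1884 reached 100 TPM and 93 reached 1000 TPM. Protein-coding genes held 95.7% ± 0.0603 of the TPM, and 14515 of the 21743 in the tables were detected at 1 TPM. Pseudogenes held 3.76% ± 0.0761, from 1133 detected of 9653. The transcript set held few long non-coding RNAs, and its 72 long intergenic ones held 0.0940% of the TPM. The most abundant long non-coding genes were *AC132460.1* at 703 ± 25.5 TPM, *1700013D24Rik* at 255 ± 29.5, *0610009L18Rik* at 168 ± 6.16, *4921528I07Rik* at 164 ± 23.0 and *4930555F03Rik* at 146 ± 16.5 TPM. *AC132460.1* (chr17:28076418-28080295) lies within the span of the protein-coding *Tcp11* and shares 447 identical bases with it, so its reads cannot be told apart from those of *Tcp11* (1683 ± 120 TPM).

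Few genes held much of the mRNA. The 4 most abundant genes held 6.75% ± 0.548 of the TPM, the first 10 held 9.11% ± 0.604, the first 100 held 24.2% ± 0.912 and the first 1000 held 58.5% ± 0.699. The first 50% of the mean TPM lay in 644 genes, with 619, 636 and 675 genes in the single testes. Per read rather than per molecule the distribution was flatter, since the abundant mRNAs were short. By estimated counts 1144 genes held the same proportion and the first 10 held 3.32% ± 0.0932. The leading transcripts of the 10 most abundant genes had a median length of 612 bases, and those of all detected genes 1983 bases.

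*Prm1*, protamine 1, was the most abundant gene, with 25089, 22537 and 19020 TPM in WT replicates 1, 2 and 3 (22215 ± 3048 TPM, 2.25% of the total). *Prm2*, protamine 2, stood at 17614, 17299 and 15498 TPM (16804 ± 1142). The ranges of the protamines did not overlap, and both were lowest in replicate 3. Transition protein 1 (*Tnp1*) had 14966, 15167 and 13032 TPM, and all 3 values lay under those of *Prm2*. Transition protein 2 (*Tnp2*) had 12937, 13766 and 12796 TPM. *Tnp1* was above *Tnp2* in each testis although their ranges overlapped. *Prm1* (chr16:10796326-10805839), *Prm2* (chr16:10791380-10796134) and *Tnp2* (chr16:10787936-10788660) are neighbours on the minus strand of chromosome 16, and *Tnp1* (chr1:73015074-73015909) lies on chromosome 1. The read numbers behind these values put *Prm2* first of all genes, *Prm1* at rank 4, *Tnp2* at rank 8 and *Tnp1* at rank 16, since the leading transcripts span only 437 to 621 bases.

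A gap separated these 4 genes from the rest. *mt-Co1*, a subunit of cytochrome oxidase encoded in the mitochondrial genome, had 3976, 4035 and 4031 TPM, far under the lowest *Tnp2* value, and was at rank 2 in read number. The pseudogene *Gm29216* (3851 TPM) is nearly identical to *mt-Co1* over 483 bases, so the value of *mt-Co1* depends on how reads were divided. *Meig1*, a factor needed for the manchette and the flagellum of spermatids, had 3963, 3825 and 3855 TPM. The polyubiquitin gene *Ubb* stood at 3872 ± 158 TPM. *Ldhc*, the lactate dehydrogenase of male germ cells, had 3357, 3571 and 3710 TPM and, with a transcript of 1370 bases, was also at rank 7 in read number. The range of *Ubb* overlapped those of *mt-Co1* and *Meig1*, so the place of *Ubb* is not fixed by these testes. The listed values of *mt-Co1* lay above those of *Meig1* without overlap.

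**Figure D1:**
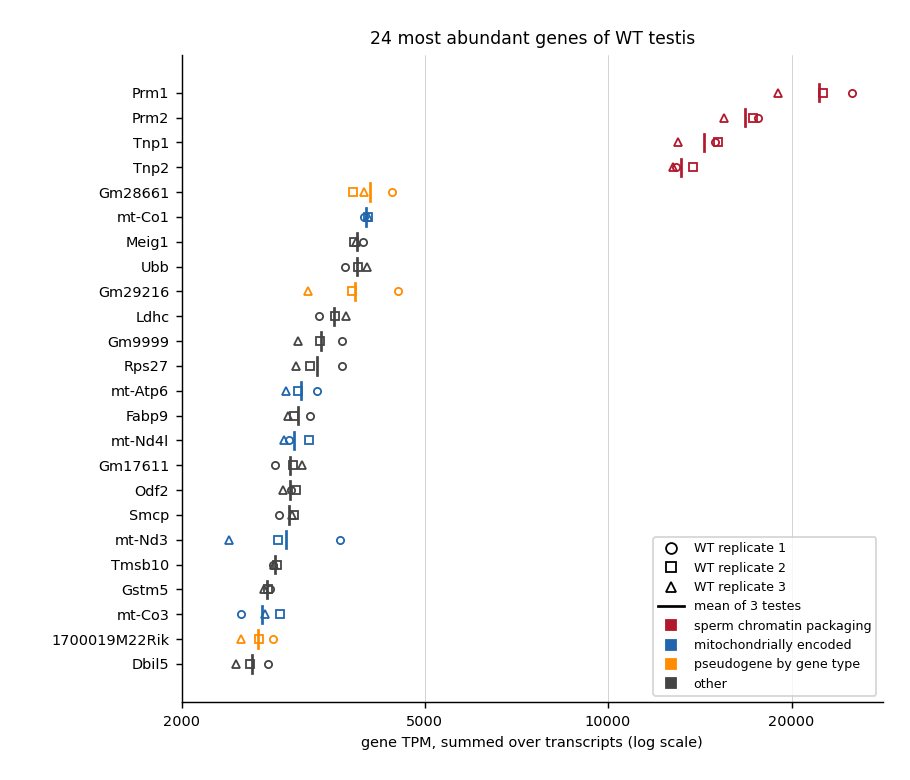
Gene TPM (log axis) of the 24 most abundant genes in WT testis, with a symbol for each of the 3 testes and a bar for their mean, and with sperm chromatin packaging genes in red, mitochondrially encoded genes in blue and pseudogenes in orange. The 4 packaging genes lie at 12796 TPM or more, and no other gene exceeds 4531 TPM. That value is of Gm29216, which is nearly identical to a part of mt-Co1, so the division of reads between them is uncertain.

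Further down the list came proteins of the sperm tail and cytoplasm. *Odf2*, the major outer dense fibre protein, had 3006 ± 74.1 TPM and was at rank 3 in read number. *Smcp*, the cysteine-rich protein of the mitochondrial capsule, had 2993 ± 92.8 TPM, and *Gstm5*, a glutathione S-transferase found in the fibrous sheath, 2759 ± 29.6 TPM. *Fabp9*, a lipid-binding protein of germ cells, had 3098 ± 134 TPM and *Dbil5*, a germ-cell relative of the acyl-CoA-binding protein, 2604 ± 159 TPM. *Tmsb10*, which binds actin monomers, had 2839 ± 18.9 TPM, one of the smallest spreads among the 25 genes.

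Some of the 25 rest on very short transcripts, for which few positions can give a read. *Gm17611*, annotated as still to be experimentally checked, had 3010 ± 153 TPM from a transcript of 231 bases with an effective length of 36.2 bases, and ranked 2814 in read number. *Gm9999* (3376 ± 285 TPM) ranked 784 and *Rps27*, a ribosomal protein gene at 3328 ± 304 TPM, ranked 929 in read number. The mitochondrially encoded *mt-Nd4l* (3054 ± 151 TPM) and *mt-Nd3* (3638, 2871 and 2387 TPM) are likewise short. Levels of these genes are less certain than those of *Ldhc* or *Odf2*.

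Among the 25 were also 3 pseudogenes. *Gm28661* (4069 ± 309 TPM, chr1:24614885-24615565) and *Gm29216* (4531, 3801 and 3221 TPM, chr1:24615706-24616197) lie beside each other in a stretch of chromosome 1 that is nearly identical to mitochondrial DNA. Reads from mitochondrial mRNA fit both places, so the value of either place alone cannot be told apart from the other. *Gm28437* (1500, 715 and 695 TPM) and *Gm28438* (920 ± 204 TPM) belong to the same stretch, and *Gm28437* was highest in replicate 1. The 13 mitochondrially encoded genes held 2.45% ± 0.0764 of the TPM, and 3.44% ± 0.177 together with 11 nearly identical nuclear copies. *1700019M22Rik*, a processed pseudogene at 2667 ± 163 TPM, has no such partner. Its transcript of 354 bases has an effective length of 89.4 bases, and the gene ranked 1138 in read number, so its level is also less certain.

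To ask what the mRNA is spent on, genes were sorted into 34 functional classes, each gene into 1 class only. Sorting used lists of gene names and name patterns, so a member need not act in the structure that its class is named after. The classes held 2598 genes and 41.1% ± 0.414 of the TPM. Named protein-coding genes in no class held 48.0% ± 0.586, led by *Fabp9*, *Dbil5*, *Pebp1* (2028 ± 11.2 TPM), *Gsg1* (1728 ± 46.6) and *Phf7* (1585 ± 34.3). Protein-coding genes known only by a clone name held another 6.93% ± 0.109.

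By TPM, sperm chromatin packaging was the largest class although it had only 7 genes, with 7.42%, 7.23% and 6.40% of the TPM in replicates 1, 2 and 3 (7.02% ± 0.545). By read counts it held 1.41% and 8 classes stood above it, with proteasome and ubiquitin (3.30%) first. Beside the 4 leading genes it included *Prm3* at 1127 ± 55.8 TPM, *Hils1*, a linker-histone-like protein of spermatids, at 897 ± 29.9 TPM, and *H1fnt* at 657 ± 12.7 TPM. Histones themselves held 0.477% of the TPM from 106 genes. Their leading member was *Hist2h2aa1* at 1162 ± 90.5 TPM, followed by *H2al2a*, a histone H2A variant of condensing spermatids, at 640 ± 18.5 TPM, and by the replacement histone *H3f3a* at 530 ± 31.1 TPM. Replication-dependent histone mRNAs mostly lack a poly(A) tail, and the libraries were made from poly(A) RNA.

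Several classes named after parts of the sperm tail and head were of similar size. The axoneme class held 2.39% ± 0.0104 of the TPM. In front were *Meig1*, the dynein light chain *Dynlt1b* (1338 ± 154 TPM) and the radial spoke protein *Rsph1* (1113 ± 61.1 TPM). *Dynlt1b* is nearly identical to *Dynlt1a* (505 TPM), *Dynlt1f* (499 TPM) and *Dynlt1c* (47.2 TPM) and held 55.6% of the sum with its relatives, so the division of reads among them is uncertain. Outer dense fibre and fibrous sheath genes held 1.87% ± 0.0156 from only 25 genes, led by *Odf2*, *Gstm5* and *Odf1* (1908 ± 71.4 TPM). The class named perinuclear theca and head cytoskeleton held 2.14% ± 0.0302. Its highest members were *Spata33* at 1641 ± 78.9, *Spata24* at 1235 ± 20.8 and *Spata4* at 1155 ± 10.7 TPM, whose place in these structures was not tested. Acrosome and sperm-egg interaction genes held 1.67% ± 0.0249. *Crisp2*, a secreted protein of the acrosome and tail, led them with 2215 ± 98.0 TPM, before *Dkkl1* with 1237 ± 35.1 and the protease inhibitor *Spink2* with 885 ± 24.5 TPM. The 6 testis-specific serine kinases held 0.132%, and the channels and transporters of sperm 0.249%, led by *Catsperz*, a subunit of the sperm calcium channel, at 587 ± 16.1 TPM.

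Protein synthesis, folding and turnover took another large portion. Ribosomal proteins held 4.73% ± 0.128 of the TPM but 1.30% of the read counts, and after *Rps27* their most abundant genes were *Rpl41* (2165 ± 138 TPM) and *Rps29* (2044 ± 132 TPM). The proteasome and ubiquitin class held 2.91% ± 0.0727, and, unlike the ribosomal proteins, held more of the counts (3.30%) than of the TPM. Chaperones held 2.02% ± 0.0434, with the small heat shock protein *Hspb9* at 1350 ± 44.9, the chaperonin subunit *Tcp1* at 1183 ± 72.8 and *Hsp90aa1* at 1139 ± 62.2 TPM. Translation factors held 1.19%, led by *Eef1a1* (1489 ± 31.3 TPM) and *Eif1* (1243 ± 120 TPM), and the genes for storing mRNA 1.01% ± 0.0311. *Ybx2* (MSY2), which coats stored mRNA in germ cells, led the latter with 2444 ± 23.8 TPM. *Ybx1* followed with 1483 ± 68.1 TPM and *Pabpc1* with 1335 ± 69.7 TPM. The piRNA pathway, which silences transposons, held 0.444%, led by *Mael* at 975 ± 30.5 TPM.

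Energy genes were divided between germ-cell isozymes and widely expressed ones. The 10 germ-cell glycolytic isozymes held 0.887% ± 0.0198 of the TPM, and 33 other glycolytic genes 0.643% ± 0.0217, without overlap between the 3 testes. By read counts the order was the opposite, 0.767% against 0.868%. Nuclear genes of oxidative phosphorylation held 2.38% ± 0.0310, with the germ-cell subunit *Cox8c* first at 1523 ± 33.7 TPM. Sperm selenoproteins, capsule proteins and thioredoxins held 0.786% ± 0.00797, which came mostly from *Smcp* and *Gpx4* (2000 ± 46.4 TPM).

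Somatic classes were small. Sertoli cell genes held 0.438% ± 0.0454 of the TPM. *Defb19*, a beta-defensin, led them with 1153, 856 and 799 TPM, and was highest in replicate 1, whereas *Clu*, clusterin, held 594 ± 30.9 TPM. Leydig cell and steroidogenesis genes held 0.364%, 0.244% and 0.282% in replicates 1, 2 and 3, and 70.3% of the class was *Insl3*. Peritubular, endothelial and matrix genes held 0.182%. Macrophage and blood genes held 0.0903%, but 67.7% of this was *Aif1* at 603 ± 4.94 TPM, while the separate list of 10 macrophage markers, which does not contain *Aif1*, reached 18.6 TPM on average at most. Spermatogonial genes held 0.0834%, of which *Dmrtb1*, a regulator of the step from mitosis to meiosis, made up 86.1%. *Id4*, a gene of spermatogonial stem cells, came next at 29.6 ± 4.85 TPM.

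**Figure D2:**
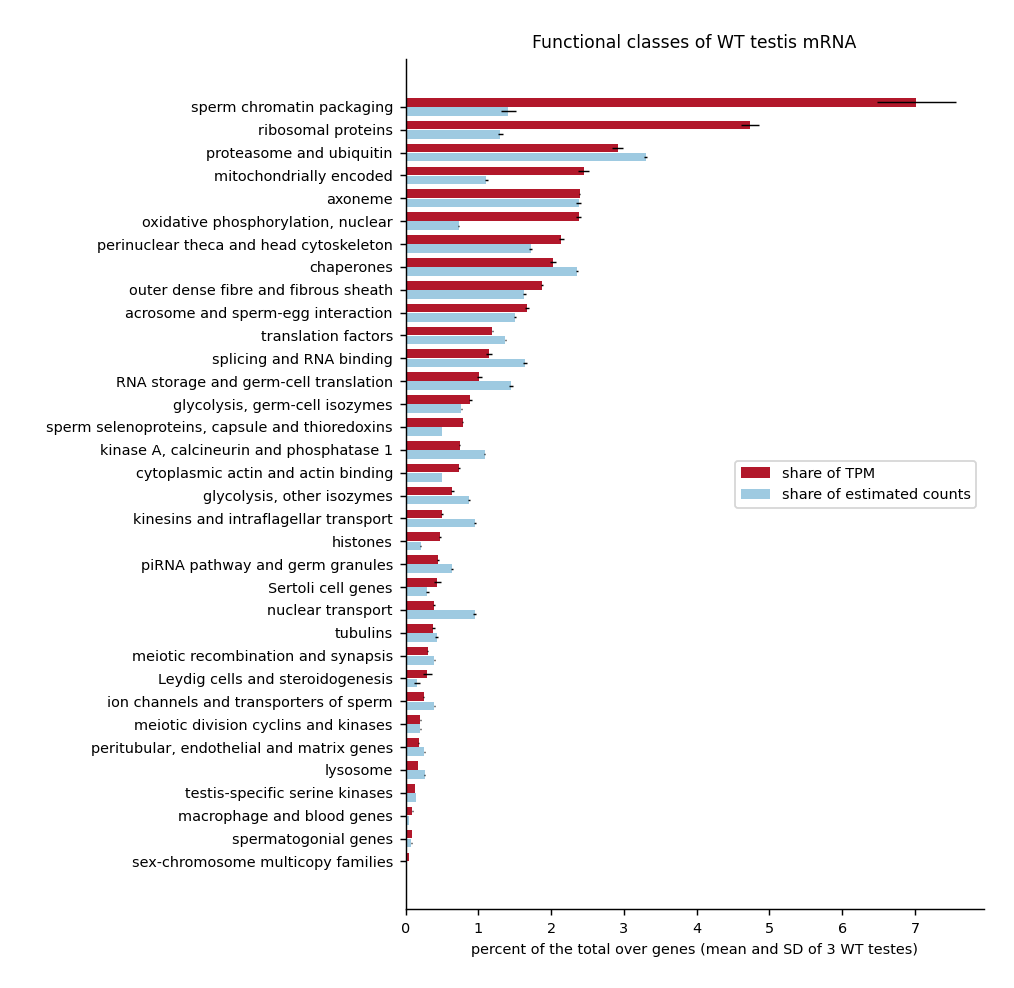
Percent of the total over genes held by each of the 34 classes in WT testis, as TPM (red) and as estimated read counts (blue), with bars for the mean and lines for the SD of 3 testes. Sperm chromatin packaging (7.02% of TPM, 1.41% of counts) and ribosomal proteins (4.73% and 1.30%) differ most between the scales.

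Families of related genes were then compared to see which member the testis uses. Of 80 families listed, 79 had at least 2 members in the tables, and their 280 members present included 260 with a mean of at least 1 TPM. By the stricter rule of 1 TPM in all 3 testes, 14515 of all 21743 protein-coding genes were detected. The same member led in all 3 testes in 74 families, and its 3 values lay above those of the next member in 74. The leader held over 50% of its family's TPM in 64 families and over 90% in 24. By read counts the same member led in 66 of the 79 and another in 13.

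In glycolysis the member known from male germ cells led at 4 steps. *Pgk2*, an intronless phosphoglycerate kinase on chromosome 17, had 756, 730 and 720 TPM against 15.3, 13.1 and 16.3 TPM for the X-linked *Pgk1*, and held 98.0% ± 0.226 of the pair. *Gapdhs* had 1708, 1721 and 1591 TPM against 88.8, 87.9 and 88.8 TPM for *Gapdh* (95.0% ± 0.227 of the pair), although *Gapdh* has 75 nearly identical relatives among the listed genes. *Pgam2* held 96.8% ± 0.558 of phosphoglycerate mutase. *Ldhc* held 71.5% ± 0.940 of lactate dehydrogenase, before *Ldha* at 774 ± 19.6, *Ldhal6b* at 556 ± 4.46 and *Ldhb* at 84.1 ± 5.05 TPM.

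At other steps the gene of the widely expressed enzyme led, with all its transcripts summed. *Hk1* held 98.2% ± 0.318 of hexokinase and *Pkm* 99.7% ± 0.554 of pyruvate kinase. In aldolase *Aldoa* led with only 49.7% ± 1.49. Much of the rest was in the germ-cell retrogenes *Aldoart2* and *Aldoart1*, with 299 ± 7.56 and 82.4 ± 2.38 TPM. *Eno1* held 65.2% ± 1.13 of enolase, and *Eno4*, the enolase of the sperm tail, 46.5 ± 2.60 TPM. Glucose uptake was led by *Slc2a3* (GLUT3, 956 ± 99.8 TPM), then by the fructose carrier *Slc2a5* (293 ± 9.23 TPM), while *Slc2a1* stood at 3.76 ± 0.139 TPM. *Slc16a7* (MCT2) held 94.1% ± 0.202 of the lactate and pyruvate carriers.

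In mitochondria the testis members of cytochrome oxidase led over their relatives at 3 positions. *Cox8c* held 95.0% ± 0.922, *Cox6b2* 94.9% ± 0.682 and *Cox7b2* 93.8% ± 0.460 of their families. At subunit 4 the common *Cox4i1* held 99.3% ± 0.0762. *Pdha2*, the autosomal E1 alpha subunit of pyruvate dehydrogenase, held 96.3% ± 0.538. The testis cytochrome c *Cyct* had 171 ± 4.70 TPM and held 91.0% ± 0.863, or 76.1% where 4 near-identical copies of *Cycs* were counted with *Cycs* and 63.5% by read counts. The ADP/ATP translocases were not ordered, with *Slc25a5* at 47.6, 35.5 and 41.9 TPM and the germ-cell *Slc25a31* at 37.6, 40.1 and 42.9 TPM.

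**Figure D3:**
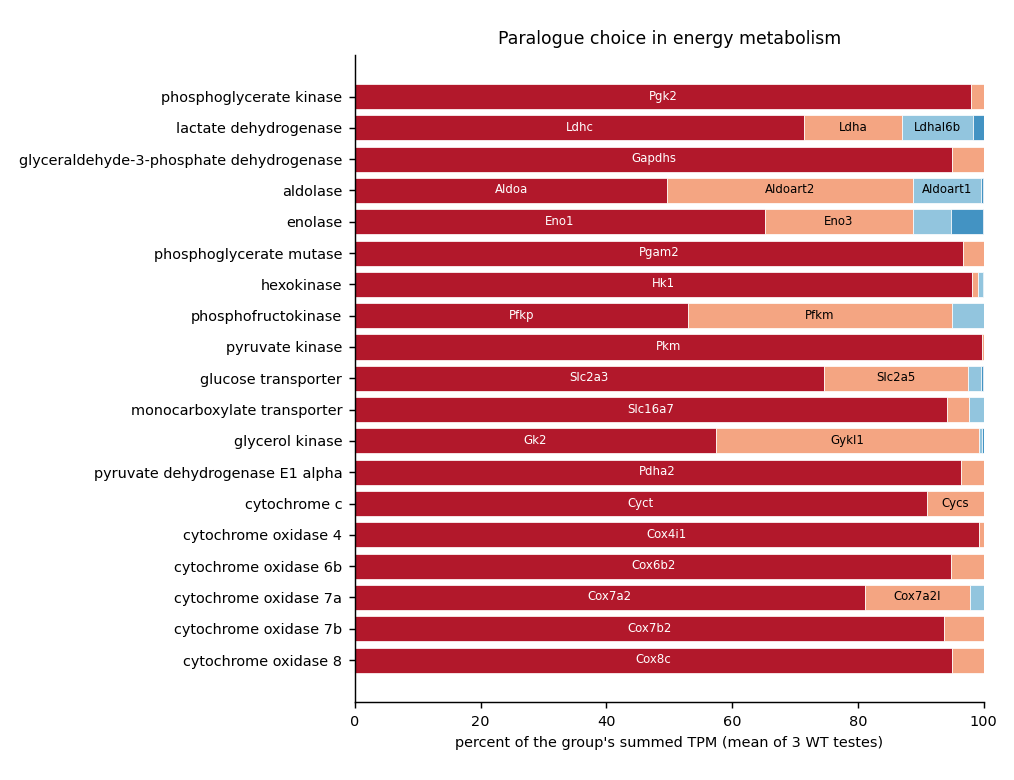
Mean percent of the summed TPM of each of 19 gene families of energy metabolism held by its members in 3 WT testes, with the leading member in red and members above 9% named. Pgk2, Hk1, Pkm and Cox4i1 fill over 98% of their bars, whereas aldolase is divided between Aldoa (49.7%) and Aldoart2.

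The cytoskeleton and the RNA machinery showed the same mixture. *Tubb4b* held 91.2% ± 0.224 of beta tubulin. Alpha tubulin was led by *Tuba3a* (1088 ± 81.3 TPM) and *Tuba3b* (855 ± 54.8 TPM), which are nearly identical, so the division of reads between them is uncertain. *Ppp1cc*, the phosphatase 1 catalytic subunit required in spermatids, held 94.3% ± 0.383 of its family at 927 ± 29.3 TPM. The sperm calcineurin subunits *Ppp3cc* and *Ppp3r2* held 63.8% ± 0.655 and 93.3% ± 0.716. *Atp1a4*, the sodium pump of sperm, held 82.3% ± 1.55. *Clgn*, calmegin, held 80.6% ± 0.684 over its relative *Canx*. *Papolb*, the cytoplasmic poly(A) polymerase of spermatids, had 230 ± 4.16 TPM against 140 ± 2.33 for *Papola*.

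Regulators of germ cell transcription were divided less sharply. *Crem*, the cAMP-responsive activator of spermatids, had 266, 258 and 270 TPM and its relative *Atf1* 238, 233 and 240 TPM, while *Creb1* stood at 11.0 ± 0.980 TPM. The coactivator *Fhl5* (ACT) had 273 ± 13.6 TPM, far under its relative *Fhl4* at 1180 ± 27.4 TPM. *Tbpl1*, a TATA-binding-protein relative needed for spermiogenesis, held 71.1% ± 0.284, and *Gtf2a1l*, its TFIIA partner, 91.8% ± 1.05. *Brdt*, the bromodomain protein of germ cells, was not separable from *Brd2*, at 214, 206 and 210 TPM against 199, 222 and 210 TPM.

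Meiotic members led most cohesin and cyclin families. *Smc1b* held 94.2% ± 0.793, *Stag3* 80.7% ± 1.25 and *Rec8* 59.4% ± 1.13 of their cohesin families, the last over *Rad21*. By read counts *Rad21* led in its place, with 54.9% against 43.7% for *Rec8*. *Ccna1*, the cyclin of meiotic division in male germ cells, held 96.5% ± 0.328 of cyclin A. *Ccna2* shares 431 identical bases with a different gene, *Exosc9* (22.6 TPM). With all of *Exosc9* added to *Ccna2*, the share of *Ccna1* was 84.5%.

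Importins, which carry proteins into the nucleus, are the family the series was built around. *Kpna2* led the alpha importins with 320, 329 and 314 TPM and 54.7% ± 4.04 of the family. *Kpna6*, importin α7, was second with 98.3, 163 and 176 TPM, so that replicate 1 lay well under the other 2 testes, although its values stayed above those of *Kpna4* (79.8, 77.2 and 80.0 TPM). *Kpna1* had 29.4 ± 1.04, *Kpna3* 10.9 ± 0.887 and *Kpna7* 2.74 ± 0.287 TPM. Among the beta importins and transportins *Ipo5* held 55.7% ± 0.800 at 405 ± 19.1 TPM, before *Ipo13* at 103 ± 1.76 and *Kpnb1*, the usual partner of the alpha importins, at 69.4 ± 2.09 TPM. Nuclear transport as a class held 0.393% of the TPM and 0.952% of the read counts.

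In most of the listed families with an X-linked gene, that gene was lower than its relatives together. Because the relatives were summed, it could still be the highest single member, as *Slc25a5* was on average among the ADP/ATP translocases. In 23 families an X-linked gene could be set against relatives on other chromosomes, and the relatives together were higher in all 3 testes in 19 of them. The families were chosen with earlier results of these data known, so this count is not a rate for X-linked genes at large. The median family had 7.75% of its TPM on the X, and 13 families had under 10%. *Pabpc5* had 0.203 ± 0.0727 TPM against 2327 TPM for the other poly(A)-binding proteins, and *Gk* had 1.93 ± 0.341 TPM against 709 TPM for its relatives, of which the intronless *Gk2* had 408 ± 6.58 TPM. The translational helicase *Ddx3x* had 12.7 ± 1.09 TPM and its autosomal copy *D1Pas1* 146 ± 6.40 TPM. The ribosomal protein genes *Rpl10* (27.3, 18.0 and 20.6 TPM) and *Rpl39* (59.0, 36.2 and 39.6 TPM) stood under *Rpl10l* (262 ± 5.34 TPM) and *Rpl39l* (444 ± 2.35 TPM). *Rpl10* has 6 nearly identical relatives, and with their values added *Rpl10l* held 74.7% in place of 92.2% ± 1.71.

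The X-linked gene was the higher one in all 3 testes in 4 families. These were *Uba1*, the ubiquitin-activating enzyme (111 ± 7.89 TPM against 13.6 for the Y-linked *Uba1y*), *Usp9x* (26.4 ± 1.60 against 1.45 TPM), the polyadenylation factor *Cstf2* (53.0 ± 5.94 TPM against 15.2 for *Cstf2t*) and *Taf7l* (29.2 ± 1.61 TPM against 8.39 for *Taf7*), the germ-cell member of its pair. Among the X-Y pairs the Y-linked gene was higher for *Eif2s3y*, needed for spermatogonial proliferation (38.1 ± 2.03 against 8.88 ± 0.994 TPM), *Kdm5d* and *Uty*. With all members that have near-identical relatives left out, 13 such families remained and the X-linked genes held under 50% in 11.

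Gene structure differed within these families. The relative paired with the X-linked gene was a single-exon gene in 7 of 23 pairs (*Gk2*, *Pgk2*, *Pdha2*, *Rbmxl2*, *D1Pas1*, *Rpl10l* and *Cstf2t*). Of these 7, 6 were the higher member. The relatives together were also higher in every testis in 19 of all 23 families, so this count does not set single-exon relatives apart. No X-linked member had a single exon, and over all detected protein-coding genes 3.36% did. The coding sequences of 21 pairs could be aligned and were 64.0 to 87.4% identical, with a median of 79.7%. The *Pgk1* start window held 24 CG dinucleotides and that of *Pgk2* 4, but the X-linked member had the higher number in only 9 of the 18 pairs with both windows.

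**Figure D4:**
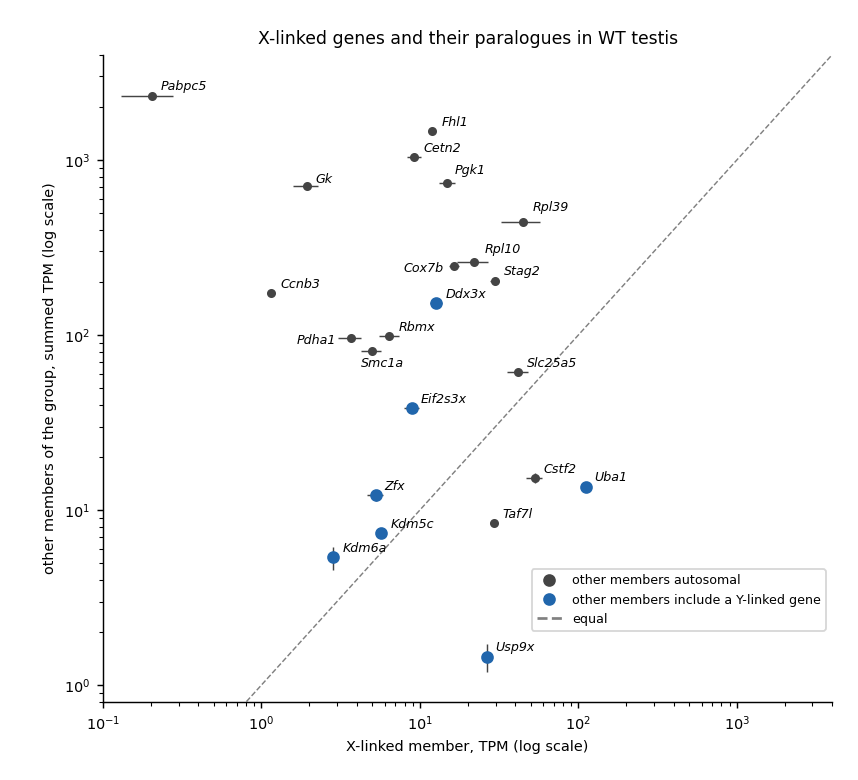
TPM of the X-linked member (horizontal, log axis) against the summed TPM of the other members of its family (vertical, log axis) in 23 families, as mean and SD of 3 WT testes, with families that include a Y-linked gene in blue and equality as a dashed line. In 19 families the point lies above the line in all testes, and Uba1, Usp9x, Cstf2 and Taf7l lie under it.

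Over the whole chromosome the levels of detected genes were low, whereas the number detected was not. The X held 1.62% ± 0.0180 of the TPM. Of its 942 protein-coding genes listed, 617 (65.5%) reached 1 TPM in all testes, within the range of 57.2 to 76.8% on the autosomes. At 10 TPM it was 227 (24.1%), against 31.7 to 47.2% on the autosomes. The median detected protein-coding gene stood at 6.42 TPM on the X and at 11.3 to 17.9 TPM on the autosomes. The most abundant X-linked genes were *1700084M14Rik* at 807 ± 38.5 TPM and *Akap4*, the main scaffold of the fibrous sheath, at 799 ± 19.6 TPM. The Y held 0.245% ± 0.00185, led by *Sly*, a multicopy regulator of sex-chromosome genes in spermatids, at 160 ± 2.44 TPM. Multicopy genes share reads among their copies, so single values on the X and Y are uncertain. Chromosome 16 held 7.49% ± 0.407, 2.49 times its share of protein-coding genes, and 30.1% of this TPM was *Prm1*.

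Most abundant genes were spread over several transcripts. Among 8601 protein-coding genes with a mean of at least 10 TPM, 6647 had more than 1 transcript in the set. In these the leading transcript held a median of 61.8% of the gene's TPM (interquartile range 45.3 to 82.5%), over 90% in 1100 genes and under 50% in 2124. The same transcript led in all 3 testes in 5953 genes (89.6%). The leader was annotated as not coding for the full protein in 961 genes (14.5%), of which 518 were processed transcripts, 276 retained introns and 162 targets of nonsense-mediated decay. By read counts this was 5.48%, since such transcripts are often short. *Eif1-202*, a processed transcript of 383 bases, held 49.2% of the TPM of *Eif1* but 10.4% of its reads, and *Atp5b-207* held 49.8% and 7.15%. *Nupr1l-204*, annotated as a decay target, held 89.5% of the TPM and 91.0% of the reads, so there the scale made little difference.

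The start of angiotensin-converting enzyme (*Ace*) is a textbook case of a germ-cell promoter inside a gene, and its RefSeq start windows on the plus strand of chromosome 11 are shown because the data bear on both. The first 120 bases lie before the somatic start (chr11:105967828-105967947) and the others before the internal start (chr11:105975069-105975188), with capitals as above.
Ace somatic start: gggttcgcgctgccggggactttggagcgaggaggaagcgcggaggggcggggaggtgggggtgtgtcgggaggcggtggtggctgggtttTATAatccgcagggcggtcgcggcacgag
Ace internal start: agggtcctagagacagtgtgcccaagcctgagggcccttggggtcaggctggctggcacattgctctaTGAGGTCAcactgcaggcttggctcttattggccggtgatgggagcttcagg

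The window of the somatic start held 29 CG dinucleotides and a TATA 29 bases before it, and that of the internal start held 2 and a TGANNTCA match 52 bases before it. *Ace-202*, which begins near the internal start (first exon chr11:105975208-105975403) and encodes the short germ-cell enzyme, had 244, 243 and 263 TPM. *Ace-201*, which begins near the somatic start (first exon chr11:105967945-105968245), had 17.7 ± 0.636 TPM (SD, n = 3). The ranges are far apart, and the short form held 77.8% ± 0.308 of the gene's TPM and the long form 5.52%. *Ace-203*, with a start between them, held 16.7% ± 0.297.

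Other genes known for germ-cell transcripts were also led by 1 form. *Ppp1cc-201* had 755, 809 and 804 TPM and held 85.3% ± 5.74 of the gene, and *Ppp1cc-202* held 5.91% ± 0.340. A decay target of the gene, *Ppp1cc-209*, had 107, 21.6 and 5.12 TPM and so varied far more than the gene. *Gpx4-202* held 79.8% ± 0.265 of the selenoprotein gene *Gpx4*. *Sox5-204* held 59.9% ± 1.56 and *Sox5-211* 37.3% ± 1.16, starting 834871 and 834880 bases downstream of the first start of the gene. *Oaz3-204* held 94.5% ± 0.213, *Ddx4-202* 96.8% ± 0.627 and *Adcy10-202* 67.0% ± 0.890. In *Hk1* the form that starts farthest upstream, *Hk1-203*, held 43.9% ± 2.04 and *Hk1-205*, which begins 37186 bases downstream, 29.0% ± 1.38. A fragment of 296 bases, *Hk1-217*, held 19.0% of the TPM but 0.432% of the reads.

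Some genes had no clear leader. *Crem* was divided over 39 transcripts, and *Crem-222* held 28.9% ± 1.19. *Odf2-201* and *Odf2-211* held 33.2% ± 0.379 and 19.2% ± 0.866. *Kit*, the receptor of differentiating spermatogonia, had *Kit-201* at 26.7% ± 7.04 and *Kit-208*, which starts 74178 bases downstream and retains an intron, at 25.4% ± 5.89. *Kpna6-201*, the leading transcript of *Kpna6* with its first exon at chr4:129662400-129662479 on the minus strand, had 75.4, 132 and 148 TPM and held 80.7% ± 3.72. *Kpna6-202* begins 10288 bases upstream (first exon chr4:129672677-129672767) and had 16.9, 23.4 and 22.3 TPM. Both were lowest in replicate 1.

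The 3 testes differed little for most genes. Among 8974 genes with a mean of at least 10 TPM the median coefficient of variation was 5.67%, and it was over 20% in 324 genes (3.61%). Of the 23 genes over 50%, 13 were pseudogenes, which made up 337 of the 8974. The 5 most variable genes were *Dynlt1-ps1* (0, 54.0 and 0 TPM), *Gm20803* (13.4, 0.0240 and 36.5), *Rps3a2* (17.2, 0.180 and 34.3), *Gm12751* (0, 24.4 and 18.7) and *Gm10705* (0, 19.1 and 22.7). An exact 0 beside such values can come from how reads were divided between near-identical sequences, which was not tested.

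Steroid genes of Leydig cells differed between the testes. *Star*, which brings cholesterol into mitochondria, had 33.5, 7.95 and 27.4 TPM in replicates 1, 2 and 3. *Cyp17a1*, on the path to androgens, had 197, 79.3 and 199 TPM, and *Cyp11a1*, which starts steroid synthesis, 107, 44.8 and 91.8 TPM. *Hsd3b6*, an adult Leydig cell dehydrogenase, had 31.9, 4.67 and 29.8 TPM. In all of these replicate 2 stood far under the other testes. The luteinizing hormone receptor *Lhcgr* had 4.51, 1.62 and 3.03 TPM.

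Of 18 Leydig cell and steroidogenesis genes, listed after the spread had been seen, 16 were lowest in replicate 2, and over all 8601 protein-coding genes at 10 TPM or more 2850 (33.1%) were. Only 11 of these 8601 stood in replicate 2 at under 0.5 of the mean of the other testes, and *Hsd3b6*, *Star*, *Cyp17a1* and *Cyp11a1* were among them. The exceptions in the list were *Hsd3b1*, a near relative of *Hsd3b6*, which was highest in replicate 2 (42.9, 52.0 and 36.6 TPM), and *Cyb5a* (43.1, 43.2 and 47.2 TPM). The genes did not move equally. *Nr5a1*, a transcription factor of steroidogenic cells, had 16.2, 15.7 and 16.0 TPM, so it was lowest in replicate 2 only by little. Which cells its reads came from was not tested. *Insl3* had 2571, 1778 and 1820 TPM, so that *Insl3* was high in replicate 1 rather than low in replicate 2 alone. A difference in the portion of Leydig cells in the sample and one in RNA per cell cannot be told apart here, and library depth, highest in replicate 2, was not tested as a cause.

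**Figure D5:**
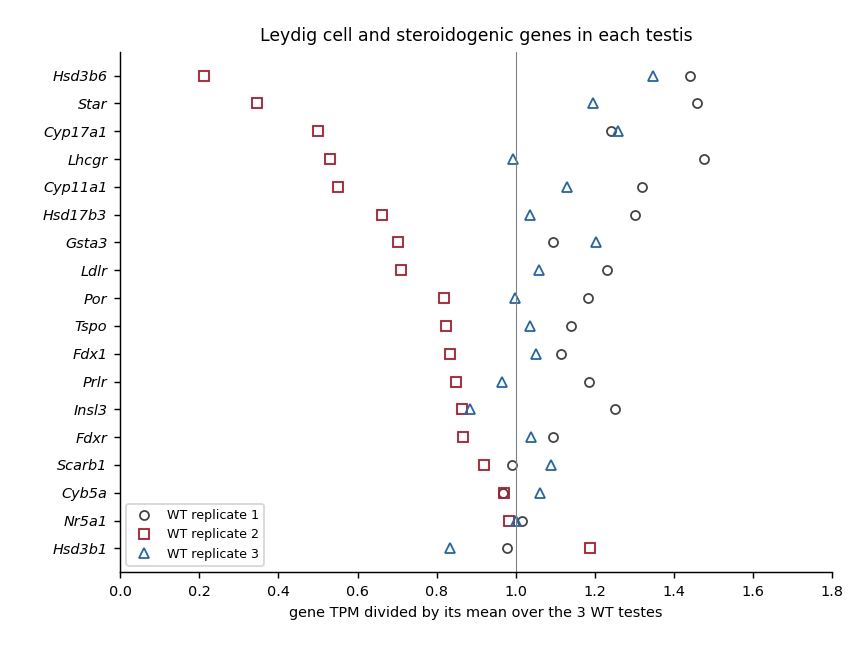
TPM of 18 Leydig cell and steroidogenesis genes in each of 3 WT testes, divided by the gene's mean over the testes and ordered by the level of replicate 2. Replicate 2 is lowest for 16 of the genes, and Hsd3b6 and Star (22.1 and 22.9 TPM on average) show the widest separation.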

How the data were processed

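Polyadenylated RNA of whole testis was sequenced by the authors on an Illumina instrument after library preparation with the NEBNext Ultra kit, and reads were assigned to a mouse transcript set with kallisto (version 0.45 in the submitters' processing notes, which also name build mm10). Which release the transcript set came from is not given in the sources used here. The deposited tables give each transcript a length, an effective length, an estimated count and a TPM. TPM values as deposited by the authors sum to 1000000 in each library, and the deposited estimated counts are reads divided between transcripts, need not be whole, and were used only for depth and as an alternative scale.

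TPM and estimated counts were summed over transcripts by gene with pandas 2.3.3 in Python 3.11.15, after matching transcript identifiers without their version to GENCODE M21. The 1325 unmatched transcripts held 1.21 to 1.43% of the TPM and 0.446 to 0.458% of the counts, and were left out. A gene was called detected at 1 TPM or more in all 3 testes, and isoforms were described for protein-coding genes with a mean of at least 10 TPM. Transcripts under 300 bases (2996) have very short effective lengths and held 2.49 to 2.75% of the TPM but 0.0797 to 0.0865% of the counts. With blastn 2.17.0+, transcripts sharing 100 bases or more, and 0.5 or more of the shorter one, at an identity of 95% or above were called nearly identical. The scripts were tested on simulated tables with known shares.

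The classes, families, isoform genes and marker lists were chosen with earlier results of these data known. Named genes were the 25 of highest mean TPM, the 3 highest of each class, the family, isoform and marker genes, the 5 of largest coefficient of variation, and the 5 highest long non-coding genes and pseudogenes. Genes outside this rule, and the steroid list, were chosen after their values were seen. Of 281 family members listed, *Cct6a* was not analysed here. Some genes that this rule names are not reported here. Alternatives were estimated counts, other minimum levels, other sets of transcripts and leaving out each testis.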

Additional observations from a re-analysis of the deposited data

Results flagged for a closer look

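One transcript without a gene in the annotation was among the most abundant of all, in values that the gene-level results do not use. It spans 159 bases, has an effective length of 30.6 to 31.9 bases, and had 6291, 7496 and 8305 TPM in WT replicates 1, 2 and 3 (mean 7364 TPM), resting on 4896, 6156 and 5705 estimated counts. By TPM it would follow the 4 sperm chromatin genes. Of the 983 unlisted transcripts with a value, 440 equalled a listed transcript in length, TPM and count in all 3 testes, and these held 17.4% of the unlisted TPM. Among family members this touched *Cox7b2*, which had 246 TPM alone and 493 TPM with its unlisted equal, and *Ppp1ca*, with 14.4 and 28.8 TPM.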

How the results depend on the processing

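No paired analysis was possible because only 1 group of testes was described and no groups were compared. By estimated counts several orders turned. Sperm chromatin packaging fell from rank 1 to rank 9 among the classes, the germ-cell glycolytic isozymes (0.767%) lay under the other glycolytic genes (0.868%), *Prm2* passed *Prm1*, and another member led in 13 of 79 families. On that scale the genes holding the upper 50% of the total rose in number to 1144, the 10 most abundant genes held 3.32%, all classes 31.0%, sperm chromatin packaging 1.41%, ribosomal proteins 1.30% and mitochondrially encoded genes 1.11%, the median leading transcript held 75.5% and 5.48% of genes were led by a transcript not of protein-coding type. These follow from the counts not being divided by length. Without mitochondrially encoded genes in the total all classes held 39.7%. Mitochondrially encoded genes held 2.08% with transcripts under 300 bases left out and 3.44% with near-identical nuclear copies added. With members that have near-identical relatives left out, 11 of the 13 families still holding an X-linked member had it under 50%. The median leading transcript held 64.3% at a minimum of 50 TPM and 80.9% among protein-coding transcripts, and 15.0% of genes were led by a non-coding type at a minimum of 5 TPM.

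Leaving out each testis in turn gave 15974 to 16024 genes detected, 628 to 656 genes holding the upper 50%, 8.87 to 9.44% in the 10 most abundant genes, 41.0 to 41.4% in all classes, 6.82 to 7.33% in sperm chromatin packaging, 4.66 to 4.78% in ribosomal proteins and 2.42 to 2.49% in mitochondrially encoded genes. It also gave 65 to 67 families led with over 50%, 24 with over 90%, 19 with the X-linked member under 50%, a median leading transcript of 61.6 to 61.9%, 14.3 to 14.7% of genes led by a non-coding type, and a median SD of 0.0591 to 0.0721 against 0.0795 log2 units with all 3 testes. Of 79 family shares, 52 fell and 18 rose by more than their SD by counts, and 11 fell and 2 rose with near-identical outside genes added.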
